A study of Mus musculus with 3 samples.

Results

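Transcripts of 8 genes that act below Gi-coupled receptors were followed through 3 single-cell libraries of mouse retina. The genes were the inhibitory G protein alpha subunits Gnai1, Gnai2 and Gnai3 and the adenylyl cyclases Adcy1, Adcy2, Adcy5, Adcy6 and Adcy9. They were taken as a list by name, and all 8 were found among the 18823 genes of the explant library, the 17851 genes of the P0 library and the 17849 genes of the P14 library.

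Somatostatin receptor 2 (Sstr2) is a Gi-coupled receptor. On binding somatostatin such receptors load Gi alpha subunits with GTP, and the freed alpha subunit slows adenylyl cyclase, the membrane enzyme that makes cyclic AMP, while the beta-gamma dimer acts on ion channels and kinases. Gnai1, Gnai2 and Gnai3 encode closely related alpha subunits, whereas the cyclases differ in their inputs: Adcy1 is stimulated by calcium and calmodulin, Adcy2 by beta-gamma dimers together with Gs alpha, and Adcy5 and Adcy6 are inhibited by Gi alpha and by calcium. Adcy9 is the cyclase least sensitive to the plant compound forskolin.

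The explant library held wild-type CD1 retinas dissected at embryonic day 14 and grown on membranes for 6 days with 0, 5, 50 or 500 nM of a small-molecule Sstr2 agonist, with 2 samples at each dose. The P0 and P14 libraries each held an Sstr2 allelic series on a mixed C57BL/6 and CD1 background, with 1 sample labelled wild type (+/+), 2 heterozygous (+/-) and 2 knockout (-/-). The breeding pair carried a germline Sstr2 allele on C57BL/6NCrl, was outbred to CD1 and its offspring intercrossed, and littermates were compared. Samples were told apart by lipid-anchored barcodes (MULTI-seq) and pooled into 1 10x Chromium 3′ library per experiment. The sources do not say how many animals a sample held, so that p-values measure at most the spread between these samples, which may be technical. edgeR shares that spread over genes, so a gene's own spread may enter its p-value little.

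The explants gave 5607 cells (318 to 1075 per sample, 1281682 to 4237324 unique molecular identifiers, UMIs), the P0 retinas 5706 cells (1018 to 1254, 8822880 to 10793649 UMIs) and the P14 retinas 3298 cells (304 to 1000, 1266730 to 5886669 UMIs). The median cell of a sample held 3925 to 4317 UMIs in the explants, 7258.5 to 8541 at P0 and 3381 to 3729.5 at P14. Libraries shared 9, 4 and 7 cell barcodes in their 3 pairings. Each cell type named by the authors carried at least 1 UMI of every measured gene of its own marker list. Explant progenitors did so too for all 8 amacrine and all 8 rod markers, so this does not test the names. P14 cones also held 12076 to 21745 CPM of rod markers, where CPM are UMIs of a gene scaled to a common total per sum of cells. Xist, the transcript of the inactive X chromosome, was seen in 98.3% to 99.3% of cells in both explants at 500 nM and in 1 at 5 nM, and in 57.7% to 62.4% of cells of the other 5 explants, so that the sex of the animals and the highest dose cannot be told apart. At P0 it was seen in 99.4% of cells of heterozygous replicate 1 and of knockout replicate 2 and in 1.91% to 2.90% of cells of the others, and at P14 in 72.7% of cells of heterozygous replicate 2 and in 1.80% to 4.29% of the others. The 5 explants and this P14 sample thus held cells with and without Xist, as samples of both sexes do. Sstr2 RNA in P0 neurogenic progenitors was highest where the label was knockout, at 112 CPM in the wild type, 189 and 248 CPM in the heterozygotes, and 294 and 375 CPM where the label was knockout. The study reports this rise from a test over single cells, and proposes that the receptor's signal may hold down transcription of its own gene. The log2 fold change of knockout over wild type was 1.57 (SE 0.19, edgeR adjusted p = 0.00411). The deleted part of the gene is not given in the sources used here, and tags from the 3′ end may lie outside it, so this level checks neither the label nor the loss of the receptor.

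Members lay on 7 chromosomes of GRCm38 (mm10), in GENCODE M21 coordinates. Gnai1 spans chr5:18265135-18360355 on the minus strand, Gnai2 chr9:107614125-107635367 (minus) and Gnai3 chr3:108107280-108146146 (minus). Adcy1 spans chr11:7063489-7178506 (plus), Adcy2 chr13:68620043-68999541 (minus), Adcy5 chr16:35154877-35305738 (plus), Adcy6 chr15:98589973-98610076 (minus) and Adcy9 chr16:4287529-4420498 (minus). Adcy6 has an antisense gene, Gm29331 at chr15:98589990-98591090, which begins just inside its 3′ end. Gm29331 was absent from the genes of the explant, P0 and P14 libraries. The strand used in counting is not stated, so that reads of this pair may be joined.

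RefSeq promoters of GRCm38.p6, here the 250 bases before the annotated start, were matched for 6 of the 8 members, not for Gnai2 and Adcy6. The 3 printed here are examples of members whose levels part the neuron types in the results that follow, Gnai1 (amacrine and ganglion cells), Adcy1 (ganglion cells and rods) and Adcy2 (immature photoreceptors). Capitals mark the letters GGGCGG, the core of the GC box, on either strand.
Gnai1 (chr5:18360414-18360663, minus): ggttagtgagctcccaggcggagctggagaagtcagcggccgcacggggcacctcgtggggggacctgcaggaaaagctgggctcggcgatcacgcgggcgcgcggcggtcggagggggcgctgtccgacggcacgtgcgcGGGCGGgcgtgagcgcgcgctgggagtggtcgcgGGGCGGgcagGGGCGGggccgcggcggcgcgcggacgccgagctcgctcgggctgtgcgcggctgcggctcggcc
Adcy1 (chr11:7063183-7063432, plus): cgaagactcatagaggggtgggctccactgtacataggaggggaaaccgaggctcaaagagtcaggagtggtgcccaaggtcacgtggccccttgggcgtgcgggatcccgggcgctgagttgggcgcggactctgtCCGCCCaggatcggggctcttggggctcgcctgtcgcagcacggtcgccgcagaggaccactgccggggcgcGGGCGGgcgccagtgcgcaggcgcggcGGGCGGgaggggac
Adcy2 (chr13:68999542-68999791, minus): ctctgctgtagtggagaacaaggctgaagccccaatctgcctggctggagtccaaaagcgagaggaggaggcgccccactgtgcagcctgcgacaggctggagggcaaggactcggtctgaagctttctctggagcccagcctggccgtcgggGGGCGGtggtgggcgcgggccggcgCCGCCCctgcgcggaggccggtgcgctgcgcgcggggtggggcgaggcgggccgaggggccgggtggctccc
GC made up 79.2%, 71.2% and 73.2% of their bases. GGGCGG stood 3 times before Gnai1, 3 times before Adcy1, 2 times before Adcy2, 4 times each before Adcy5 and Adcy9 and not before Gnai3, and 32.7% of all 32851 RefSeq promoters of this length held it. The full cyclic AMP response element TGACGTCA (1.55% of all promoters) and TAATCC, a motif of the photoreceptor factor Crx (6.25%), were found in none of the 6 windows. The shorter TGACG, which is part of the full element, stood 1 time before Adcy9 (17.8% of all promoters). The E-box CANNTG stood 1 time before Gnai1, 2 times before Gnai3 and 1 time before Adcy1 (66.2%). All motifs were searched on both strands.

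Levels were computed from raw UMIs summed over the cells of a type in a sample and are given in CPM of that sum. Because the assay counts each captured molecule by a 3′ tag, these levels are not scaled by transcript length, and capture per gene was not measured. Fewer than 10 cells were available for ganglion cells (RGCs) of 1 explant at 0 nM and for amacrine cells of both P14 heterozygotes, which were left out. Types against the other types of the same library were fitted with edgeR with sample as a block. The types themselves came from clusters of these cells, so a call says only that a difference was steady over samples.

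Gnai2 was highest in progenitors and Müller glia, and its level stepped down from primary progenitors to neurogenic progenitors to neurons. In explant progenitors the 8 samples ran from 873 through a median of 913 to 948 CPM, and in neurogenic progenitors, the cells about to leave the cycle that carry Sstr2, from 319 through 377 to 480 CPM. In P0 progenitors Gnai2 stood at 758 CPM in the wild type, 859 and 706 CPM in the heterozygotes and 834 and 741 CPM in the samples labelled knockout. In P0 neurogenic progenitors it stood at 357, 391, 366, 341 and 339 CPM in the same order. The ranges of the progenitor classes did not overlap in either library, and primary progenitors were 2.37 times as high in the explants (8 of 8 samples) and 2.17 times as high at P0 (5 of 5).

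Neurons held less. Explant photoreceptors averaged 173 ± 38 CPM (SD, n = 8), amacrine cells 156 ± 36 CPM and RGCs 117 ± 63 CPM (n = 7), and the ranges of these 3 neighbours overlapped. P0 photoreceptors averaged 297 ± 56 CPM, amacrine cells 182 ± 20 CPM and RGCs 153 ± 39 CPM (n = 5 each). P0 photoreceptors overlapped with neurogenic progenitors, which were the higher in 5 of 5 samples. The P0 photoreceptor level was 196 CPM as a mean over cells instead of a sum, beside 326 CPM in neurogenic progenitors and 176 CPM in amacrine cells. Its place in the order was thus kept, but its distance from these neighbours depends on the scale. This cluster also carried 1394 to 2380 CPM of primary progenitor markers, against 299.7 to 654 CPM in explant photoreceptors, and their part was not tested. Against the other types, Gnai2 was higher in progenitors by a log2 fold change of 2.36 (SE 0.06) in the explants and 1.90 (SE 0.05) at P0, and in neurogenic progenitors by 0.72 (SE 0.08) and 0.37 (SE 0.06). The edgeR adjusted p-values were 7.47e-53, 2.81e-30, 3.39e-12 and 2.70e-06.

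At P14 Gnai2 was highest in Müller glia, the support cells that arise from late progenitors. The 5 samples held 951 (wild type), 1055 and 951 (heterozygous) and 999 and 1300 CPM (labelled knockout). Bipolar cells averaged 95.4 ± 4.2 CPM, rods 18.1 ± 7.5 CPM and cones 14.5 ± 8.3 CPM (n = 5 each). Müller glia were thus 11.02 times as high as bipolar cells and 58.1 times as high as rods, with no overlap, and the log2 fold change against the other types was 4.98 (SE 0.15, edgeR adjusted p = 3.22e-31). P14 amacrine cells ranged from 15.5 to 154 CPM in 3 samples, too widely to be placed between bipolar cells and rods.

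Gnai3 was the most even of the family. Its means lay between 75.2 CPM in RGCs and 131 CPM in photoreceptors in the explants, and between 67.3 CPM in amacrine cells and 109 CPM in progenitors at P0. All neighbours in the explant order overlapped. At P0 progenitors were above neurogenic progenitors (109 against 97.1 CPM, higher in 5 of 5 samples). These ranges nearly met, at 103.8 CPM in the lowest progenitor sample and 103.6 CPM in the highest neurogenic sample. The log2 fold change of progenitors over the other types was 0.58 (SE 0.06). At P14 Müller glia led with 62.7, 56.0, 74.2, 64.9 and 73.4 CPM, above every bipolar sample (mean 39.3 CPM), while rods and cones averaged 21.2 and 21.6 CPM. Müller glia had a log2 fold change of 1.62 (SE 0.17, edgeR adjusted p = 1.72e-11).

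Gnai1 was highest in amacrine cells and RGCs, whereas P14 bipolar cells (11.5 CPM) and Müller glia (11.3 CPM) held alike levels. Explant amacrine cells ran from 34.7 through 43.5 to 55.0 CPM and RGCs from 17.6 through 29.6 to 77.6 CPM, against means of 18.9 CPM in photoreceptors, 12.2 CPM in progenitors and 7.49 CPM in neurogenic progenitors. P0 RGCs averaged 83.6 ± 45.1 CPM and amacrine cells 36.4 ± 4.3 CPM, without overlap with each other or with photoreceptors at 16.5 CPM. At P14 amacrine cells held 148 CPM in the wild type and 69.8 and 142 CPM in the samples labelled knockout, all above the 11.5 CPM of bipolar cells and the 1.52 CPM of rods. As a mean over cells instead of a sum, Gnai1 in these amacrine cells was 58.1 CPM in place of 120 CPM. Its log2 fold change was 4.51 in P14 amacrine cells (SE 0.31, edgeR adjusted p = 4.37e-17), 1.35 (SE 0.16) and 0.70 (SE 0.15) in amacrine cells of the explants and P0, and 1.55 (SE 0.34) and 2.33 (SE 0.19) in RGCs. It was -1.77 (SE 0.28) and -1.61 (SE 0.23) in neurogenic progenitors. Tested genes had to pass a filter on low counts, and no P14 sample of another type exceeded 23.5 CPM of Gnai1. Gnai1 may thus have entered the P14 fit through amacrine cells, so that call is not separate support for the high level there. These P14 amacrine cells also carried RGC markers at 1355 CPM in the wild type and 1791 and 446 CPM in the samples labelled knockout, and horizontal cell markers at 3980 CPM, and 1155 and 1910 CPM. Their part in Gnai1 was not tested.

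**Figure D1:**
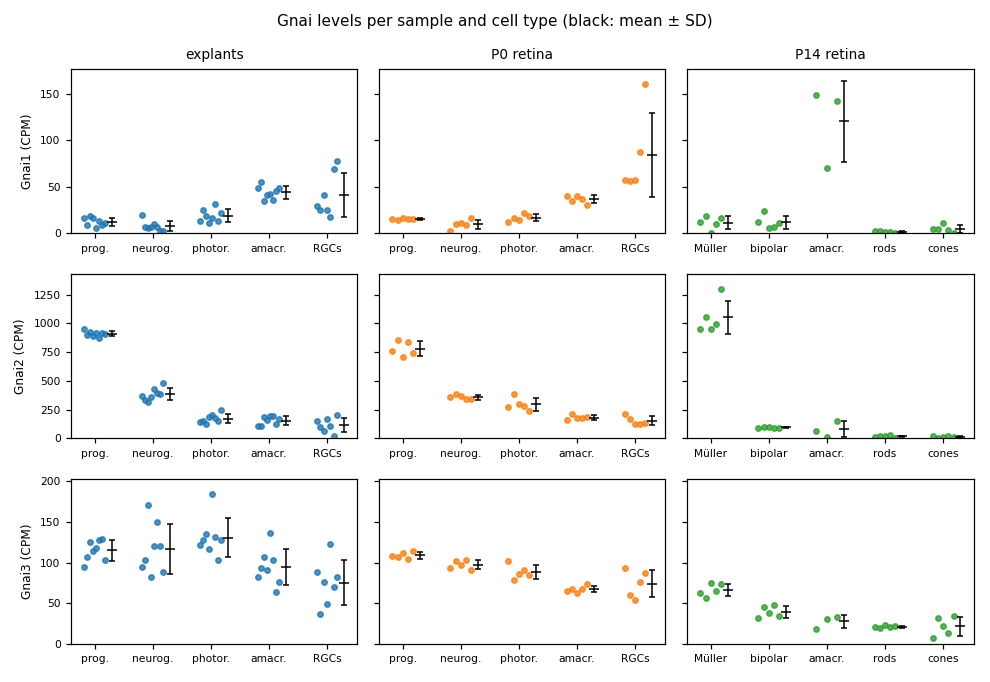
Level of Gnai1, Gnai2 and Gnai3 in CPM (vertical, linear, shared along a row) by cell type (horizontal) in explants, P0 and P14 retinas. Each dot is 1 sample and black bars are the mean ± SD, and Gnai2 in progenitors (873 to 948 CPM in the explants) and Müller glia (951 to 1300 CPM) stands above all other types.

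The make-up of the Gnai pool followed from this. Gnai2 gave 87.7% ± 1.2 of the Gnai1, Gnai2 and Gnai3 UMIs in explant progenitors (SD, n = 8), 86.2% ± 1.4 in P0 progenitors (n = 5) and 93.1% ± 0.4 in Müller glia (n = 5). In neurogenic progenitors it gave 75.6% ± 5.8 and 77.0% ± 1.5. RGCs held all 3 genes, with Gnai1 at 18.6% in the explants and 26.4% at P0. Amacrine cells did too, with 286, 945 and 572 UMIs of Gnai1, Gnai2 and Gnai3 in the explants and 302, 1496 and 557 at P0. In P14 amacrine cells Gnai1 gave 55.4% ± 10.8 (n = 3, 170 UMIs), although as means over cells Gnai1 and Gnai2 were 58.1 and 60.0 CPM there. In rods Gnai3 had the highest mean share, at 53.8% ± 13.3 (n = 5, 328 UMIs). Its samples of 19.7 to 22.9 CPM there overlapped with those of Gnai2, at 6.92 to 27.0 CPM. These shares are of captured tags, and genes may be captured at unequal rates.

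**Figure D2:**
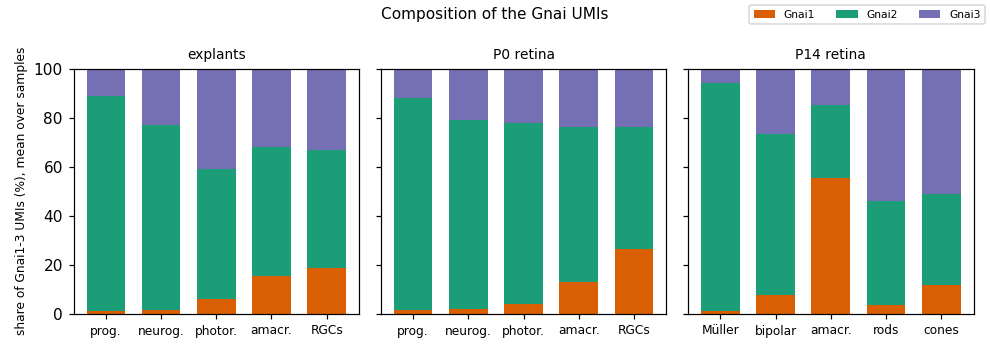
Stacked bars of the share of Gnai1 (orange), Gnai2 (green) and Gnai3 (purple) among their summed UMIs in percent (vertical), as means over samples, by cell type and library. Gnai2 fills 86.2% to 93.1% of the bar in P0 progenitors, explant progenitors and Müller glia, and Gnai1 55.4% in P14 amacrine cells.

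Among the cyclases, Adcy1 was highest in RGCs in the explants and at P0 and in rods at P14. In explant RGCs it ran from 162 through 321 to 379.5 CPM, while the means of the other 4 types lay between 5.40 and 11.7 CPM. The study describes its explants as being without viable RGCs, so the name here is that of the authors' annotation. These cells carried RGC markers at 2585 to 3133 CPM (7801 to 9104 CPM in P0 RGCs), amacrine markers at 862 to 1410 CPM and bipolar markers at 651 to 1249 CPM. In P0 RGCs it stood at 99.0 CPM (wild type), 175 and 159 CPM (heterozygous) and 141 and 194 CPM (labelled knockout), with amacrine cells at 13.9 CPM and other types at 2.79 to 3.99 CPM. No RGC sample overlapped with any amacrine sample. The log2 fold change of RGCs was 5.30 (SE 0.20, edgeR adjusted p = 7.96e-42) in the explants and 5.00 (SE 0.14, edgeR adjusted p = 2.15e-29) at P0. No explant sample of another type exceeded 17.2 CPM, so Adcy1 passed the filter on low counts there through its RGC samples. The explant call is therefore not separate support for the high level in RGCs.

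At P14, in a library without a type named RGCs, rods held most Adcy1, with 185, 156, 136, 185 and 151.5 CPM from wild type to knockout. Rods were 1.97 times as high as cones (82.5 CPM) in 5 of 5 samples, without overlap, and 11.2 times as high as Müller glia (14.5 CPM). Amacrine and bipolar cells lay at 63.8 and 41.2 CPM. The log2 fold change was 1.95 in rods (SE 0.13, edgeR adjusted p = 2.21e-17) and 0.74 in cones (SE 0.20). Rod markers averaged 16626 CPM in these cones beside 46501 CPM in rods, and the part of rod RNA in the cone level of Adcy1 was not tested. Photoreceptors at P0 and in the explants averaged 2.79 and 5.40 CPM, but each age is 1 library, so that age and library cannot be told apart.

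Adcy2 was highest in photoreceptors of the explants and in photoreceptors and RGCs at P0. Explant photoreceptors ran from 29.8 through 46.3 to 68.9 CPM and were 19.3 times as high as amacrine cells in 8 of 8 samples. P0 photoreceptors held 32.2, 34.1, 33.5, 29.4 and 21.6 CPM and P0 RGCs 39.0, 29.9, 33.8, 42.2 and 24.6 CPM. These P0 types overlapped, and both stood above neurogenic progenitors at 2.63 CPM. Photoreceptors had a log2 fold change of 2.70 in the explants (SE 0.19, edgeR adjusted p = 2.88e-23) and 1.80 at P0 (SE 0.20, edgeR adjusted p = 3.39e-10). In the explants Adcy2 passed the filter on low counts mainly through its photoreceptor samples. The explant call is therefore not separate support for the high level in photoreceptors. At P14 rods were lowest at 4.05 CPM, with a log2 fold change of -2.54 (SE 0.30), while amacrine cells (43.7 CPM), bipolar cells (30.4 CPM) and cones (24.4 CPM) overlapped. Cones were above rods in 5 of 5 samples.

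Adcy5 and Adcy6, which Gi alpha inhibits, were sparse in the explants and at P0 and parted at P14. Adcy5 averaged 35.1 ± 33.5 CPM in explant RGCs on 20 UMIs and 17.3 CPM in P0 RGCs (log2 fold change 2.18, SE 0.30). At P14 amacrine cells held 52.6, 77.5 and 62.6 CPM, which was 4.16 times the 15.4 CPM of Müller glia without overlap, and the log2 fold change was 3.56 (SE 0.39, edgeR adjusted p = 2.16e-10). No P14 sample of another type exceeded 19.6 CPM of Adcy5, so it may have passed the filter on low counts through amacrine cells. That call is therefore not separate support for the high level in amacrine cells. Rods and cones averaged 1.54 and 0.497 CPM of Adcy5. Adcy6 took the opposite side, with 60.3, 71.9, 52.9, 69.1 and 54.0 CPM in P14 rods and a mean of 42.6 ± 10.6 CPM in cones. Rods and cones overlapped, and their log2 fold changes were 1.66 (SE 0.18, edgeR adjusted p = 3.37e-11) and 0.79 (SE 0.28, edgeR adjusted p = 0.0265). The part of the rod RNA in these cones in their Adcy6 was not tested. P0 photoreceptors led in Adcy6 at 11.8 ± 1.9 CPM (log2 fold change 1.12, SE 0.22), although RGCs overlapped. Outside photoreceptors and RGCs no P0 sample exceeded 6.35 CPM of Adcy6, so it may have passed the filter on low counts mainly through photoreceptors. That call is therefore not separate support for the high level in P0 photoreceptors.

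Adcy9 was close to the limit of detection. It gave 80 UMIs in all explants, 79 at P0 and 74 at P14, its highest mean was 18.3 CPM in P14 amacrine cells (15.5, 31.0 and 8.3 CPM), and it passed the low-count filter in no fit. Its order over the types was not resolved at this depth.

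**Figure D3:**
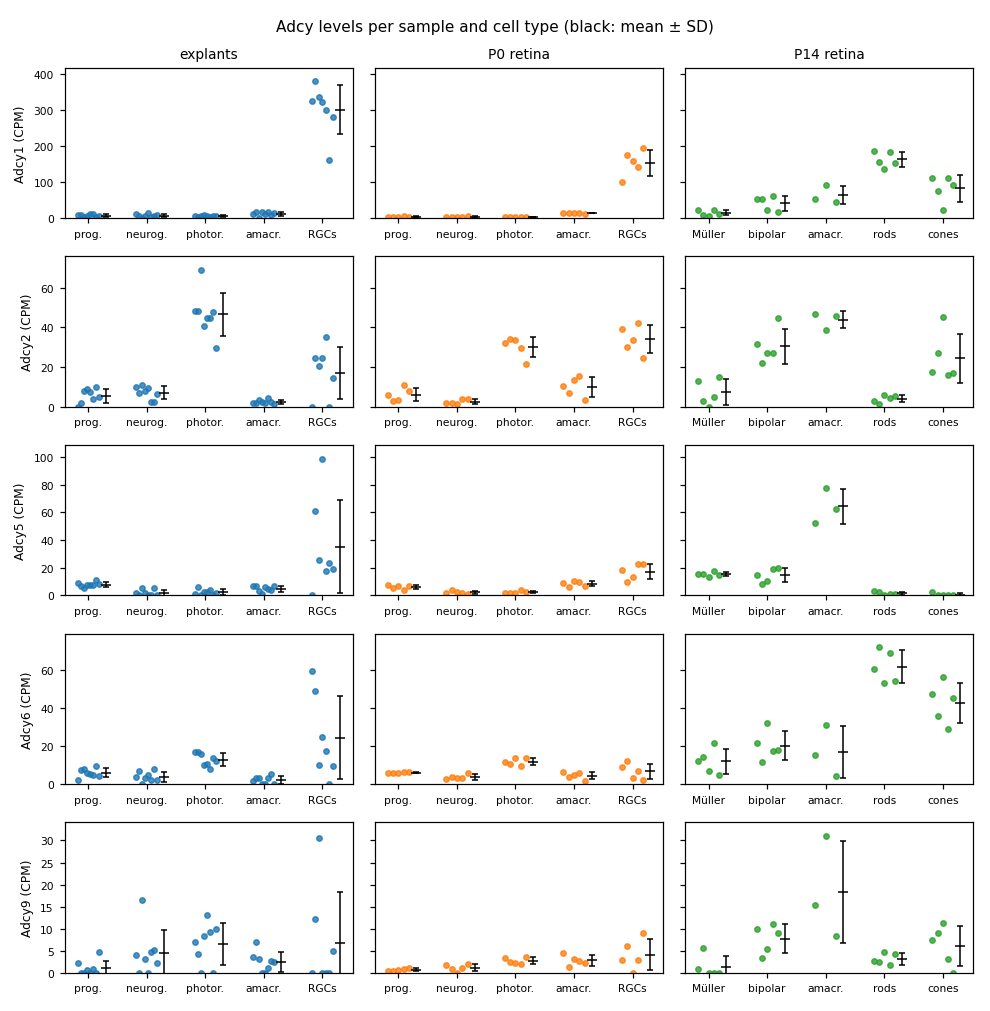
Level of Adcy1, Adcy2, Adcy5, Adcy6 and Adcy9 in CPM (vertical, linear, each row with its own range) by cell type in the 3 libraries. Dots are samples and black bars the mean ± SD, and Adcy1 stands high in RGCs (162 to 379.5 CPM in the explants) and in P14 rods (136 to 185 CPM).

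Across all types the members were tested as pairs of gene and cell type. In the explants 21 of 25 pairs passed (9 higher, 12 lower), where 56.2% of the pairs of all genes passed. At P0 28 of 35 passed (13 higher, 15 lower) against 61.7%, and at P14 26 of 35 (12 higher, 14 lower) against 44.7%. Members that entered had to pass the filter on low counts, which a gene can do through a single type. Adcy1 in the explants entered so through RGCs and Adcy2 mainly through photoreceptors, the types in which they were then called higher. Gnai1 and Adcy5 at P14 may have entered so through amacrine cells, where they too were called higher. Adcy6 at P0 may have entered mainly through photoreceptors, where it too was called higher. DESeq2 called 21, 28 and 26 pairs. The type with the highest level was the same for 22 of 24 combinations of gene and library when summed UMIs, means over cells or SCT values were used. Adcy2 at P0 and Gnai3 in the explants were the exceptions. These scales use the same molecules, so their agreement does not show that an order was resolved. Adcy9 in the explants is among the 22, with 6.81 CPM in RGCs against 6.49 CPM in photoreceptors and RGCs higher in 2 of 7 samples.

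The dose comparison asked whether receptor activation moved these transcripts. Of 15 testable pairs over 5 members, none passed between 500 and 0 nM by edgeR (2 at an unadjusted p under 0.05, 0 by DESeq2), where 0.201% of all pairs did. None passed for a slope on log10 of the dose plus 1 (3 unadjusted, 0 by DESeq2 after adjustment and 2 before), where 0.207% of all pairs did. The median log2 fold change of the members was -0.07, beside 0.00 over all genes.

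Gnai2 held the smallest unadjusted p-values. In photoreceptors it stood at 139 and 150 CPM without agonist, 128 and 184 CPM under 5 nM, 199.8 and 181 CPM under 50 nM and 154 and 244 CPM under 500 nM. Both explants at 500 nM exceeded both at 0 nM, narrowly for replicate 1, and the 5 nM explants spanned the 0 nM values. The log2 fold change was 0.46 (SE 0.16, edgeR adjusted p = 0.644) and the slope 0.17 (SE 0.06, adjusted p = 0.639). Without replicate 1 at 500 nM they were 0.79 (adjusted p = 0.0263) and 0.28 (adjusted p = 0.0178). That fit leaves 1 explant at 500 nM, whose spread is assumed to be that of the other doses, so the call rests on 1 sample. The same photoreceptors held 383 and 322 CPM of primary progenitor markers at 0 nM and 386 and 654 CPM under 500 nM, the highest value being in the explant highest in Gnai2, and the part of these markers in the result was not tested.

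In amacrine cells Gnai2 stood at 108 and 110 CPM without agonist, 183 and 164 CPM under 5 nM, 191 and 198 CPM under 50 nM and 124.5 and 165 CPM under 500 nM. All 6 treated explants lay above both untreated ones, with the highest values at 50 nM, and the log2 fold change at 500 nM was 0.42 (SE 0.15, edgeR adjusted p = 0.603). Primary progenitor markers in these amacrine cells summed to 252 and 315 CPM without agonist, 404 and 393 CPM under 5 nM, 321 and 375 CPM under 50 nM and 258 and 400 CPM under 500 nM, the lower 500 nM explant also being the lower in Gnai2, and their part was not tested. In neurogenic progenitors it stood at 370 and 337 CPM without agonist, 319 and 363 CPM under 5 nM, 428 and 391 CPM under 50 nM and 384 and 480 CPM under 500 nM. The 2 higher doses lay above the 2 lower ones, and the log2 fold change at 500 nM was 0.28 (SE 0.15, adjusted p = 0.968). Progenitors gave -0.07 (SE 0.10, adjusted p = 0.894). RGCs gave 0.06 with an SE of 0.79 on 10 to 61 cells a sample.

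Gnai3 had log2 fold changes of 0.14 in progenitors (SE 0.17), -0.10 in photoreceptors (SE 0.18) and -0.27 in amacrine cells (SE 0.18). Gnai3 in neurogenic progenitors had a log2 fold change of 0.07 (SE 0.26). Adcy2 in photoreceptors had -0.25 (SE 0.28, edgeR adjusted p = 0.994). Adcy1 in RGCs stood at 326 CPM in the 1 usable explant at 0 nM, 379.5 and 336 CPM under 5 nM, 321 and 299 CPM under 50 nM and 162 and 281 CPM under 500 nM. Both explants at 500 nM were lowest, the value of 162 CPM resting on 7 UMIs, and the log2 fold change was -0.38 (SE 0.55, adjusted p = 0.870). Its slope was -0.25 (SE 0.14, adjusted p = 0.414).

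**Figure D4:**
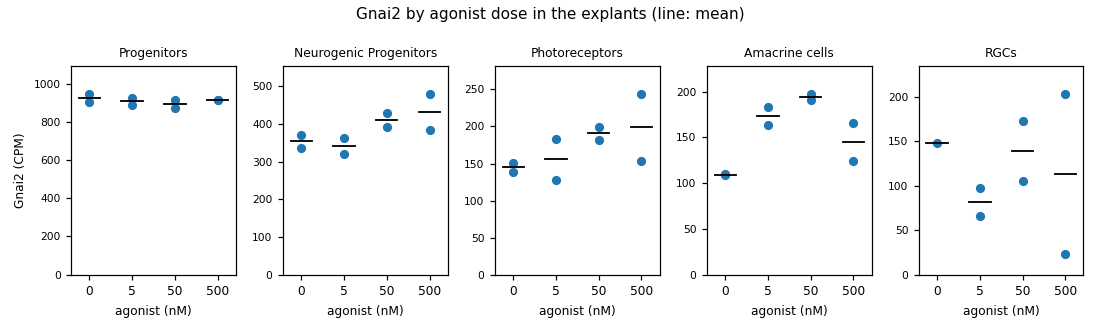
Gnai2 level in CPM (vertical, linear from 0, each panel with its own range) against agonist dose in nM (categories) for 5 explant cell types. Dots are explants and lines the mean of a dose, and the 2 explants at 500 nM lie at 154 and 244 CPM in photoreceptors, beside 139 and 150 CPM without agonist.

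The genotype comparison asked the same of the Sstr2 allele. At P0 28 of 40 pairs were testable. Between knockout and wild type none passed by edgeR (4 at an unadjusted p under 0.05, 0 by DESeq2), where 0.112% of all pairs did, and between knockout and heterozygous 1 passed (3 unadjusted, 0 by DESeq2 after adjustment and 3 before), where 0.109% did. The wild type was 1 sample and added nothing to the estimate of spread. The median log2 fold change of the members was -0.02 in both comparisons.

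The pair that passed was Gnai1 in P0 RGCs. It stood at 57.0 CPM (19 UMIs in 13 cells) in the wild type, 55.8 CPM (28 UMIs, 19 cells) and 57.4 CPM (17 UMIs, 12 cells) in the heterozygotes, and 87.2 CPM (62 UMIs, 26 cells) and 161 CPM (72 UMIs, 15 cells) in the samples labelled knockout. Both retinas labelled knockout lay above the other 3, which lay close together, and the gap between these 2 was wider than that from the lower of them to the rest. The log2 fold change over the heterozygotes was 1.08 (SE 0.26, edgeR adjusted p = 0.0119), and 0.586% of all genes tested in RGCs passed the same comparison. In this fit the spread came almost wholly from the trend over genes. The gap between the 2 retinas labelled knockout therefore hardly entered the p-value. Over the wild type it was 1.01 (SE 0.35, adjusted p = 0.230). The adjusted p was 1.00 by DESeq2, 0.909 on SCT values with limma and 0.201 without the cells of highest UMI count. Without knockout replicate 2 the log2 fold change was 0.63 (adjusted p = 0.999) and without knockout replicate 1 it was 1.52 (adjusted p = 0.000445), each leaving 1 sample of that label. Without a heterozygote or the wild type it stayed at 1.04, 1.11 and 1.08, with adjusted p = 0.204, 0.0604 and 0.0974. The size of the difference thus turned on which retina labelled knockout was kept, and the call was lost in 4 of the 5 fits with a sample left out. RGC markers summed to 9104 CPM in the wild type, 8608 and 7801 CPM in the heterozygotes and 8001 and 8644 CPM in the samples labelled knockout, and amacrine markers, of a type that also holds Gnai1, to at most 543 CPM in each of the 5.

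Gnai2 in the same RGCs stood at 216 CPM in the wild type, 165 and 121.5 CPM in the heterozygotes and 129 and 132 CPM in the samples labelled knockout. The wild type was highest and the other genotypes overlapped, with a log2 fold change of -0.78 over the wild type (SE 0.25, edgeR adjusted p = 0.188). On SCT values with limma it was -2.28 (adjusted p = 0.509). Adcy1 there had 0.68 over the wild type (SE 0.29, adjusted p = 0.511) and -0.03 over the heterozygotes (SE 0.20).

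In neurogenic progenitors, the class with most Sstr2, Gnai2 had a log2 fold change of -0.08 over the wild type (SE 0.13) and -0.15 over the heterozygotes (SE 0.10), and Gnai3 0.06 (SE 0.19) and -0.03 (SE 0.15). At 2 SE on either side, the Gnai2 interval over the heterozygotes ran from -0.35 to 0.06. Gnai1 there stood at 2.5 CPM (3 UMIs) in the wild type, 9.7 and 11.4 CPM in the heterozygotes and 8.9 and 15.9 CPM in the samples labelled knockout. The wild type was low, the others overlapped, and 2.23 (SE 0.78, edgeR adjusted p = 0.929) over the wild type rests on those 3 UMIs.

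In primary progenitors Adcy2 stood at 5.7 CPM in the wild type, 2.8 and 3.5 CPM in the heterozygotes and 10.7 and 7.9 CPM in the samples labelled knockout. The genotypes did not overlap and the wild type lay between them, with a log2 fold change of 1.56 over the heterozygotes (SE 0.31, edgeR adjusted p = 0.863). Gnai2 in photoreceptors stood at 276, 390 and 295, and 279 and 242 CPM in the order wild type, heterozygous and labelled knockout. Both heterozygotes were highest, with a log2 fold change of -0.39 for knockout over heterozygous (SE 0.14, adjusted p = 0.621). Primary progenitor markers in these photoreceptors moved the same way, at 1833 CPM, 2380 and 2060 CPM, and 1553 and 1394 CPM, and their part in the result was not tested.

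**Figure D5:**
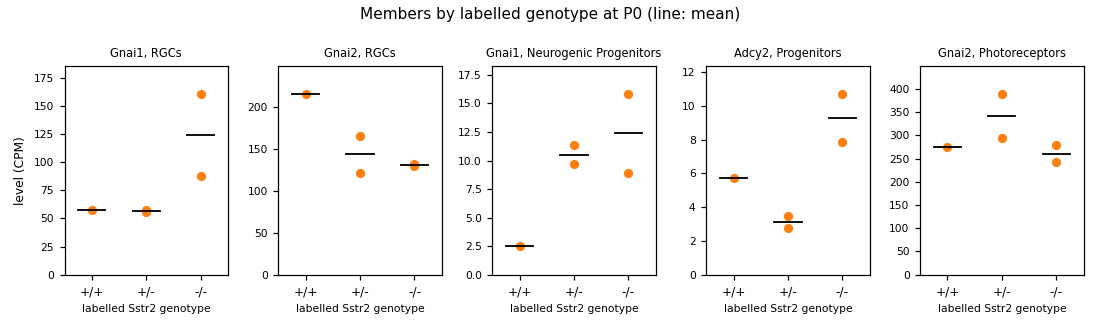
Level in CPM (vertical, linear from 0, each panel with its own range) by labelled Sstr2 genotype at P0 for Gnai1 and Gnai2 in RGCs, Gnai1 in neurogenic progenitors, Adcy2 in progenitors and Gnai2 in photoreceptors. Dots are samples and lines the mean, and Gnai1 in RGCs lies at 87.2 and 161 CPM in the samples labelled knockout beside 55.8 to 57.4 CPM in the other 3.

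At P14 26 of 40 pairs were testable between knockout and wild type and 21 of 32 between knockout and heterozygous. None passed by edgeR (0 and 1 at an unadjusted p under 0.05, 0 by DESeq2 in both), where 0.104% and 0.0839% of all pairs did. Müller glia, which held most Gnai2, had a log2 fold change of 0.28 over the wild type (SE 0.21) and 0.17 over the heterozygotes (SE 0.17). Rods had -0.12 (SE 0.16) and 0.16 (SE 0.14) for Adcy1 and 0.04 (SE 0.21) and -0.11 (SE 0.19) for Adcy6. In cones Adcy1 stood at 112 CPM in the wild type, 76.0 and 22.5 CPM in the heterozygotes and 112 and 90.5 CPM in the samples labelled knockout. The lowest value came from 2 UMIs. Rod markers in the same cones summed to 21745 CPM, 17782 and 12076 CPM, and 17804 and 13723 CPM in that order, lowest in the sample lowest in Adcy1, and their part was not tested. For Adcy1, knockout over heterozygous was 0.79 (SE 0.40, edgeR adjusted p = 0.999).

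The 7 lists of 89 other genes of the pathway were counted beside the members. Of 174 pairs tested 4 passed between 500 and 0 nM, all higher, and 2 for the slope, both higher, beside 0.201% and 0.207% of all pairs. At P0 1 of 258 passed between knockout and wild type, which was Sstr2 in neurogenic progenitors, and 2 of 258 between knockout and heterozygous, 1 in each direction, beside 0.112% and 0.109%. At P14 4 of 220 passed between knockout and wild type (1 higher, 3 lower) and 0 of 180 between knockout and heterozygous (5 at an unadjusted p under 0.05 by edgeR), beside 0.104% and 0.0839%. Across the types 189 of 270 pairs passed in the explants, 240 of 315 at P0 and 236 of 315 at P14, or 70.0%, 76.2% and 74.9%, beside 56.2%, 61.7% and 44.7% of all pairs.

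Gngt2, the gamma subunit of cone transducin, accounted for 3 of the 4 pairs at 500 nM, with log2 fold changes of 2.08 in progenitors (SE 0.35, edgeR adjusted p = 0.00039), 1.37 in amacrine cells (SE 0.26, adjusted p = 0.00143) and 0.64 in photoreceptors (SE 0.14, adjusted p = 0.0201). Its slopes passed in progenitors (0.61, adjusted p = 0.0316) and amacrine cells (0.50, adjusted p = 0.0135). Gnb3, the beta subunit of cones and bipolar cells, rose in amacrine cells by 1.39 (SE 0.31, adjusted p = 0.0216). The 6 other photoreceptor precursor markers summed to 123 and 211 CPM without agonist and 178 and 359 CPM under 500 nM in progenitors, and to 164 and 205 CPM against 220 and 303 CPM in amacrine cells. Their part in these rises was not tested. At the lower doses Gngt2 in photoreceptors stood at 2331 and 1216 CPM under 5 nM and 1249 and 702 CPM under 50 nM, beside 1306 and 1520 CPM without agonist and 2302 and 2019 CPM under 500 nM. The 3 highest explants there were the 3 with Xist in 98.3% to 99.3% of cells, so that dose and Xist cannot be told apart at 500 nM. In progenitors it stood at 13.6 and 19.7 CPM without agonist, 57.6 and 36.0 CPM under 5 nM, 7.21 and 25.1 CPM under 50 nM and 44.2 and 90.3 CPM under 500 nM, and the 5 nM explant at 57.6 CPM, also high in Xist, exceeded 1 of the 2 at 500 nM.

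Gngt2 also rose in P0 photoreceptors of knockout over heterozygous retinas by 0.88 (SE 0.11, edgeR adjusted p = 0.00857), from 1362 and 1412 CPM to 2194 and 2891 CPM, with 1559 CPM in the wild type. The 5 other cone markers in the file summed there to 455 CPM in the wild type, 225 and 346 CPM in the heterozygotes and 398 and 612 CPM in the samples labelled knockout, and their part was not tested. Rgs10, which speeds GTP hydrolysis by Gi alpha, was lower in P0 RGCs of knockout than heterozygous retinas by 0.80 on the log2 scale (SE 0.22, edgeR adjusted p = 0.0403). It stood at 199 and 111 CPM in the heterozygotes, 92.9 and 91.6 CPM in the samples labelled knockout and 156 CPM in the wild type. These rest on 33 to 100 UMIs in 12 to 26 cells a sample. The heterozygotes lay further apart than the lower of them lay from the samples labelled knockout. As for Gnai1 in the same fit, such a gap hardly entered the p-value, and no alternative fit is given here for Rgs10.

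In P14 cones Gnat1, the alpha subunit of rod transducin, had a log2 fold change of -0.93 over the wild type (SE 0.22, edgeR adjusted p = 0.00609), Gnb1 -0.81 (SE 0.21, adjusted p = 0.0384) and Gngt2 0.75 (SE 0.20, adjusted p = 0.0384). The wild type was 1 sample of 34 cells and the extreme for each gene, and none passed over the heterozygotes. From wild type to knockout, Gnat1 stood at 1830, 1346, 540, 1057 and 842 CPM. Gnb1 stood at 2081, 1435, 517, 1210 and 1159 CPM, and Gngt2 at 3040, 4636, 4925, 5016 and 5219 CPM. The rod markers given above for these cones were also highest in the wild type, and their part was not tested. Gnat1 is itself among these 8 markers and gave 1830 of their 21745 CPM in the wild type. Gng13, a gamma subunit of bipolar cells, had -2.90 in Müller glia (SE 0.54, adjusted p = 0.0218), at 50.3 CPM in the wild type, 11.2 and 20.2 CPM in the heterozygotes and 3.8 and 10.0 CPM in the samples labelled knockout. Bipolar markers there summed to 430 CPM in the wild type and 229 to 335 CPM in the other 4, and their part was not tested.

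The most abundant genes of the lists place the members in their setting. Gnas, the stimulatory alpha subunit that opposes Gi at the cyclases, averaged 1027 CPM over the 15 means of library and type, highest in P14 amacrine cells at 2345 CPM, and Gnat1 reached 4218 CPM in rods. Among the other cyclases Adcy3 averaged 3.33 CPM and Adcy8 2.96 CPM. Gngt1 and Gnb1, the partners of Gnat1, reached 15946 and 5413 CPM in rods. Of the regulators, Rgs9 reached 614 CPM in cones and Rgs16 276 CPM in explant neurogenic progenitors. The phosphodiesterases Pde10a and Pde7a averaged 47.2 and 43.5 CPM, and the protein kinase A genes Prkar1a, a regulatory subunit, and Pkig, an inhibitor, 165 and 123 CPM. Sstr2 was highest in P0 neurogenic progenitors at 244 CPM.

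Likeness was measured as Pearson's r of log2(CPM + 1) over the 15 means, which share libraries and depth, among 10308 genes (10309 for Adcy9), and is a description. Gnai1 was most like Grip1 (0.952), Tspyl5 (0.944) and Arhgap1 (0.931). Gnai2 was most like Pim1 (0.960), Hsd17b10 (0.960) and Nlgn1 (0.959), and Gnai3 like Pgm1 (0.960), Acads (0.943) and Mapk7 (0.942). Adcy1 was most like Cpe (0.937), Acaca (0.914) and Psd (0.911), and Adcy2, with the lowest values, like Chpf (0.827), Trim3 (0.821) and Camk2b (0.818). Adcy5 was most like Fam13a (0.965), Il1rapl1 (0.945) and Kcna2 (0.926), Adcy6 like Cers4 (0.947), Prickle1 (0.946) and Uhmk1 (0.937), and Adcy9 like Srpk2 (0.928) and D17Wsu92e (0.924).

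Neurogenic progenitors with at least 1 Sstr2 UMI were set beside those without. Gnai2 averaged 380 ± 60 CPM in the former and 387 ± 65 CPM in the latter in the explants (SD, n = 8), higher with Sstr2 in 2 of 8 samples, and 401 ± 40 against 318 ± 34 CPM at P0 (n = 5), higher in 4 of 5. Gnai3 averaged 102 and 92.4 CPM at P0, higher in 5 of 5 samples, and 108 and 116 CPM in the explants, higher in 3 of 8. The means thus lay in opposite order in the explants and at P0, a difference that was not tested. Cells were not matched for depth, and no test was made.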

How the data were processed

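Deposited raw UMI counts were whole numbers that the authors made from 10x 3′ libraries (per the labels, Cell Ranger 3.1.0 and mm10), with cells assigned by deMULTIplex. The SCT values are the natural log (ln) of 1 plus the count corrected by the authors' SCTransform step in Seurat 3. Cell types, conditions and sample barcodes were the authors' deposited annotation, and the replicate numbers were given here in barcode order. Filters on cells are not given in the sources used here, and no doublet caller was run. Counts were summed per sample and type (at least 10 cells) and tested with edgeR 4.0.16 in R 4.3.3 (quasi-likelihood, TMM, filterByExpr, Benjamini-Hochberg over all genes of a fit, threshold 0.05). Alternatives were DESeq2 1.42.0, its size factors, plain library sizes, no filter, limma 3.58.1 on log2(CPM + 1) of back-transformed SCT sums, the top 5% of cells by UMIs left out, and each sample left out. The edgeR step was tested on simulated data. Named genes were the members, the 3 most alike per member (at least 20 CPM in 1 mean, for members of at least 5 CPM), the 2 most abundant of each list and list genes past the threshold, and 1 gene so chosen is not reported here. Members and lists were chosen with earlier results of these data known. Positions used GENCODE M21, and blastn 2.17.0 found shared transcript ends. Intervals are of counting or sample spread only. Python 3.11.15 with numpy 2.4.6, pandas 2.3.3, scipy 1.17.1 and matplotlib 3.10.9 did the rest.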

Additional observations from a re-analysis of the deposited data

Results flagged for a closer look

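In a check of the highest and lowest sample against the rest of its group, 2 of 87 groups stood out, where chance gives about 5%. Gnai1 in explant neurogenic progenitors was 19.8 CPM in replicate 1 at 0 nM (10 UMIs in 111 cells), beside 2.21 to 9.62 CPM in the other 7 explants. Gnai3 in explant photoreceptors was 184 CPM in replicate 1 at 50 nM (70 UMIs in 126 cells), beside 103 to 135 CPM in the others.

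Adcy2 had both retinas labelled knockout on 1 side of both heterozygotes in 5 cell types, above them in some and below them in others, a split that arises often by chance with 2 samples against 2. The log2 fold change of knockout over heterozygous was 1.56 in P0 progenitors and -0.42 in P0 photoreceptors. At P14 it was -0.99 in cones, 0.61 in bipolar cells and 2.00 in Müller glia. P0 RGCs and amacrine cells, without such a split, had 0.15 and -0.20. None of these passed after adjustment by edgeR, and the difference between the types was not tested.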

How the results depend on the processing

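Of 1352 fold changes under alternatives, 1252 kept their direction and their side of the threshold, 74 lost the call, 3 gained it and 23 changed sign. Of 240 levels, 212 moved by less than 1 SD. The P0 count between knockout and heterozygous was 0 under DESeq2, 0 on SCT values with limma and 0 without the top 5% of cells, and ran from 0 to 1 with a sample left out. The count between knockout and wild type at P0 ran from 0 to 1 (1 without knockout replicate 1), as did the 500 nM and slope counts (1 without replicate 1 at 500 nM). Signs changed on SCT values for Adcy6 in P14 rods, knockout over heterozygous (0.073), and against the other types for Adcy2 in explant RGCs (-0.029), Adcy1 (0.0011) and Adcy6 (0.28) in P14 bipolar cells, Adcy5 in Müller glia (-0.32) and Gnai3 in rods (0.22). Without the top 5% of cells Gnai3 in explant neurogenic progenitors at 500 nM was -0.0081. The cause was not tested. With a sample left out, log2 fold changes that crossed 0 ran as follows. At 500 nM, Adcy2 in photoreceptors ran from -0.67 to 0.00035 and Gnai3 in neurogenic progenitors from -0.17 to 0.29. At P0 over the heterozygotes, Adcy1 in RGCs ran from -0.25 to 0.22, Gnai1 in neurogenic progenitors from -0.23 to 0.58, Gnai2 in RGCs from -0.32 to 0.095 and Gnai3 in neurogenic progenitors from -0.14 to 0.081. Over the P0 wild type, Gnai2 in photoreceptors ran from -0.21 to 0.017 and Gnai3 in neurogenic progenitors from -0.056 to 0.17. At P14, Adcy6 in rods ran from -0.28 to 0.17 over the heterozygotes and from -0.13 to 0.21 over the wild type, Adcy1 in rods from -0.26 to 0.016 over the wild type, and Gnai2 in Müller glia from -0.020 to 0.37 over the heterozygotes. No paired analysis was possible because the labels and files name samples by barcode alone, and the replicate numbers used here only follow barcode order and mark no shared animal or batch. Knockout against heterozygous was not run in P14 amacrine cells, where both heterozygotes held under 10 cells. Few cells limit the precision in several types, with a standard error of 1.38 on the log2 scale for Adcy2 in P14 Müller glia, knockout over heterozygous. Standard errors were derived from the fold change and its test statistic, so they are unreliable where the fold change is near 0. The value of 1.97 for Adcy6 in P14 bipolar cells, knockout over heterozygous, may be of this kind, at a log2 fold change of -0.0012.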
